A study of Mus musculus with 16 samples.

Results

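Costimulatory and checkpoint genes of macrophages were followed through stimulation with tumor conditioned medium and its inhibition. The 10 genes were taken by symbol from the table of all genes: Cd274, Pdcd1lg2, Cd80, Cd86, Icosl, Havcr2, Vsir, Cd200r1, Sirpa and Lgals9. Each was found among the 55487 genes of the table, and 10 of 10 were among the 12372 genes that passed the filter on low counts. For 9 of them all 16 samples were above the filter's minimum of 1 CPM, whereas Pdcd1lg2 was above it in the 3 CM samples alone and passed through them. RNA was sequenced from cultured bone marrow-derived macrophages (BMDMs), differentiated from marrow precursors, of wild-type (WT) Balb/c mice of 8 weeks. Conditioned medium (CM) came from 4T1 cells, a mouse mammary tumor cell line. Ruxolitinib (Rux) blocks JAK1 and JAK2, the kinases that pass cytokine signals to STAT proteins. IKK-16 blocks the kinases upstream of NF-κB. The study asked how blocking the first pathway alters macrophages exposed to tumor factors, and which of these changes depend on the second.

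The 16 samples formed 6 groups. Cells without CM (DMEM, n = 2) and cells with CM (CM, n = 3) received no inhibitor. CM + Rux (n = 3) received CM with 0.5 μM ruxolitinib, for which the label gives 4 h. CM + Rux 2 h (n = 2) carries a label of 2 h, and what that time refers to is not stated in the sources used here. CM + Rux + IKK-16 (n = 3) had IKK-16 at 0.8 μM besides the same dose of ruxolitinib in CM. DMEM + Rux (n = 3) received ruxolitinib without CM, at a dose and time not stated for these samples. The labels give no time for the DMEM, CM and CM + Rux + IKK-16 samples either. The study's methods give 4 h for RNA from cells treated with CM and ruxolitinib. Per the study's methods, cells given CM had first been serum starved, and ruxolitinib was already in the starvation medium of those given both. The same is not stated for the DMEM and DMEM + Rux samples. IKK-16 was not given without ruxolitinib, so its values describe an addition to ruxolitinib. The labels number the replicates but do not say whether they came from separate mice, so p-values measure the spread between these samples.

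A T cell reads antigen through its receptor, and further ligand pairs on the antigen-presenting cell decide whether that signal is amplified or damped. CD80 and CD86 bind CD28, which amplifies, and CTLA-4, which damps. ICOS ligand supports activated T cells through ICOS, whereas PD-L1 (Cd274) and PD-L2 (Pdcd1lg2) bind the inhibitory receptor PD-1. Other members restrain the macrophage itself: SIRPα receives the CD47 signal that prevents engulfment, and the CD200 receptor damps myeloid activation. PD-L1 is a well known target of interferon signaling through JAK and STAT proteins, and its gene also responds to NF-κB.

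Counts summed to between 18449388 and 46215853 per sample. The macrophage markers passed the filter in 10 of 10 cases, with a summed level of 40292 to 57185 CPM, which is counts scaled to a fixed library total, across samples. Of 11 dendritic cell markers 4 passed. The sum of all 11 was 6.35 to 7.69 CPM in DMEM, 8.86 to 8.96 in DMEM + Rux and 15.01 to 18.3 in CM. It was 17.1 to 28.6 in CM + Rux, 46.7 to 56.4 in CM + Rux 2 h and 15.1 to 16.8 in CM + Rux + IKK-16. Of 7 epithelial or tumor cell markers 0 passed. Their sum reached 1.45 CPM in CM and 0.118 CPM in DMEM, and Krt14 had no count in any sample. Of 10 T cell and NK cell markers 2 passed, Cd4 and Lck, the sum of the list was 6.97 to 15.2 CPM across samples, and Cd3g, Cd8a, Ncr1 and Trac were at 0 in all samples. Lck averaged 1.04 CPM in DMEM and 3.27 in CM, where it was called higher. The part of these markers in the results was not tested. In bulk RNA, fewer cells of a type and less RNA per cell cannot be told apart.

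Across comparisons the members moved most with CM. A gene was called when its adjusted p (edgeR's quasi-likelihood test, Benjamini-Hochberg over 12372 genes) was under 0.05 and its log2 fold change beyond 0.5. Pdcd1lg2 passed the filter on low counts only because it is high in CM, so it had to differ there and is left out of these counts and medians. CM against DMEM raised 5 of the 9 other members, against 20.9% of all genes tested, and lowered 2, against 24.1%. The median log2 fold change was 1.16 over the 9 and -0.01 over all genes tested. With ruxolitinib in CM, 1 of the 9 was higher (all genes 1.2%) and 2 were lower (2.13%). The median there was -0.53 over the 9 and 0.01 over all genes. Addition of IKK-16 to ruxolitinib raised 1 member (4.07%) and lowered 1 (3.66%). Both inhibitors together, compared with CM alone, lowered 2 (6.13%) and raised 0 (6.6%). That 0 stood beside 1 member higher at an unadjusted p under 0.05 in edgeR and 0 called by DESeq2. Over all genes these counts were 2119 and 867. Ruxolitinib without CM lowered 1 member (0.97%) and raised 0 (0%). In the higher direction 0 members had an unadjusted p under 0.05 and DESeq2 called 0, whereas over all genes 181 had such a p. The 2 h group against CM + Rux had 1 member higher (12.6%) and 1 lower (10.7%). When the effect of ruxolitinib in CM was set against its effect in DMEM, edgeR called 0 members higher (0.234%) and 0 lower (0.178%). At an unadjusted p under 0.05 in edgeR the counts for that difference were 1 higher and 4 lower, against 648 and 475 of all 12372 genes. Pdcd1lg2 was among the 4 lower, and its value there is a description. DESeq2 called 1 higher and 0 lower, against 149 and 88 of all genes. Comparisons that use the same group share its samples.

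**Figure D1:**
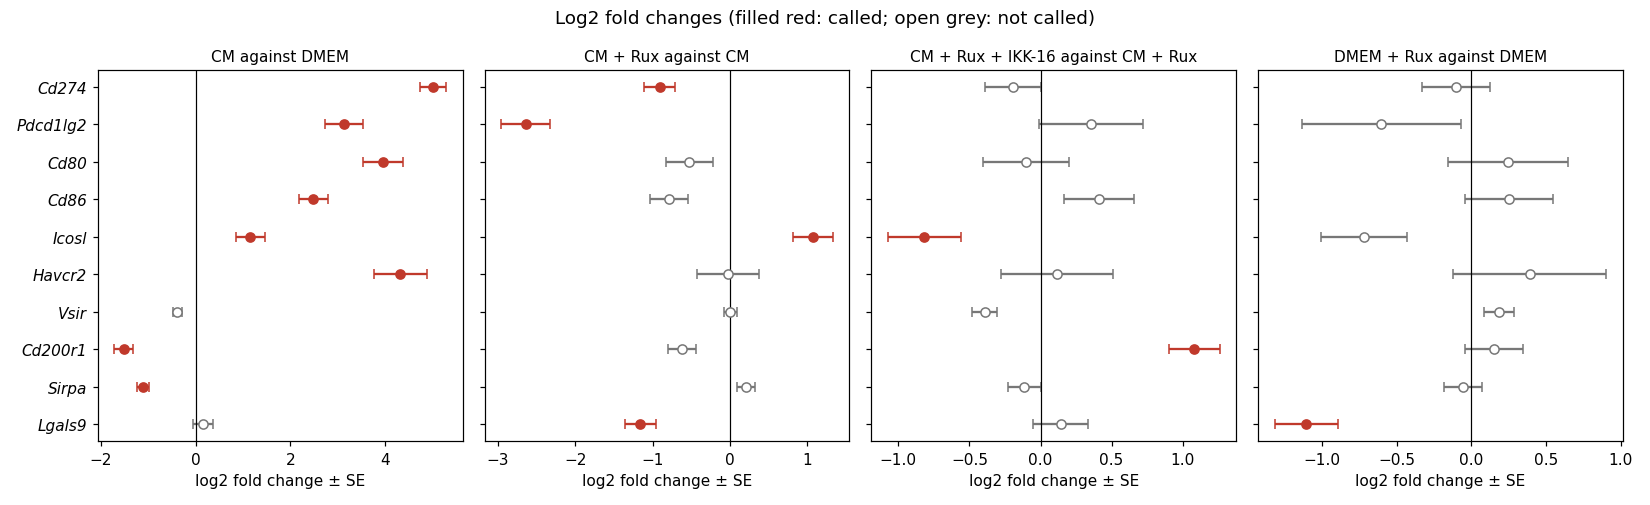
Log2 fold change with its standard error for the 10 members in 4 comparisons, with called genes in filled red and others in open grey and a scale of its own in each panel (Pdcd1lg2 is drawn as fitted, although it passed the filter on low counts only through CM). Cd274 stands at 5.01 in CM against DMEM, Icosl is the only called gene to the right of 0 with ruxolitinib in CM, and Lgals9 is the only called gene with ruxolitinib in DMEM.

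The order of the genes by level changed with CM. Levels of different genes were compared as CPM per kilobase of exons. In DMEM Sirpa was the highest at 635 ± 39.9 (SD, n = 2), followed by Vsir at 82.8 ± 11.7 and Lgals9 at 47.7 ± 16.01. Cd274 ranked 6 of 10 in DMEM at 7.91 ± 1.51, and Pdcd1lg2 was the lowest at 0.100 ± 0.0352. In CM Cd274 ranked 2 at 254 ± 22.5 (n = 3), and its range overlapped that of Sirpa at 294 ± 37.1. Vsir, Havcr2, Lgals9 and Icosl followed between 50.2 and 63.5 with ranges that overlapped from each to the next, and Cd80 and Cd86 overlapped at 23.9 and 23.7. In CM + Rux Icosl ranked 3 at 105 ± 13.6, with a range that overlapped that of Cd274 at 135 ± 27.7. In the 2 h group Icosl ranked 2 at 138 ± 12.6 and did not overlap with Sirpa above it or Vsir below it. Pdcd1lg2 was the lowest of the 10 in each of the 6 groups.

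**Figure D2:**
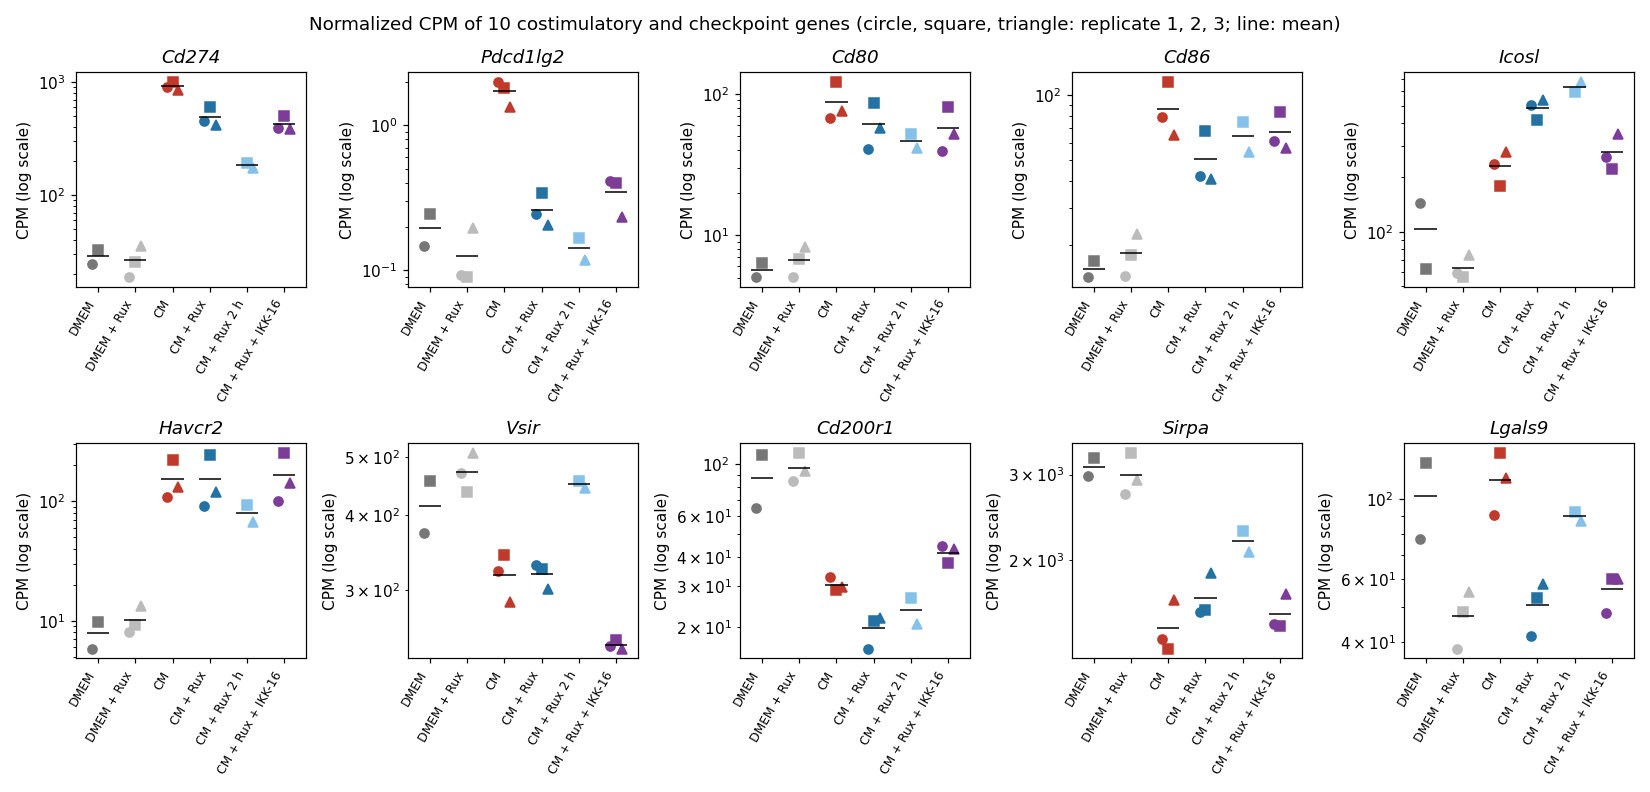
Normalized CPM on a log scale for each of the 10 members, with 1 symbol per sample in 6 groups and a line at the group mean. Cd274 lies at 24.8 and 32.5 CPM in DMEM and at 849 to 1009 in CM, whereas Lgals9 is low in 3 groups, DMEM + Rux, CM + Rux and CM + Rux + IKK-16.

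Cd274, the gene for PD-L1, rose 32.2-fold with CM and lost part of that level with ruxolitinib. It measured 24.8 and 32.5 CPM in DMEM. In CM it measured 904, 1009 and 849 CPM. These groups lie far apart, and the log2 fold change was 5.01 ± 0.28 (SE, adjusted p = 9.38e-09). CM + Rux had 453, 603 and 413 CPM, below each CM sample and above each DMEM sample. Ruxolitinib lowered the gene 1.88-fold (log2 fold change -0.91 ± 0.20, adjusted p = 0.0162), and the ratio to the same-numbered CM sample was below 1 in 3 of 3 pairs. The mean in CM + Rux was still 17.1 times that of DMEM. The call was lost without CM replicate 2 (-0.84, adjusted p = 0.0695), without CM + Rux replicate 1 (-0.86, 0.0855) and without CM + Rux replicate 3 (-0.80, 0.0833). With the replicate number as a block the adjusted p was 0.00131.

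IKK-16 on top of ruxolitinib left Cd274 at 396, 502 and 387 CPM. This range overlapped with CM + Rux, and the log2 fold change was -0.19 ± 0.20 (adjusted p = 0.563). Against CM alone, both inhibitors together lowered the gene by -1.10 ± 0.20 on the log2 scale (adjusted p = 0.00142). In the samples labelled 2 h the gene had 193 and 173 CPM, lower than CM + Rux (log2 fold change -1.42 ± 0.23, adjusted p = 0.00035) and above DMEM. Without CM, DMEM + Rux had 18.7, 25.4 and 35.6 CPM, a range that enclosed both DMEM samples (-0.10 ± 0.23, adjusted p = 1). The effect of ruxolitinib in CM less that in DMEM was -0.81 ± 0.30 (adjusted p = 0.359), which did not pass. Among its 18 alternatives it was called only without the filter on low counts (-0.81, adjusted p = 0.0363).

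Pdcd1lg2, the gene for PD-L2, had few counts, between 2 and 61 in a sample. It measured 0.148 and 0.245 CPM in DMEM (5 and 6 counts). In CM it measured 2.001, 1.81 and 1.34 CPM (36, 61 and 33 counts). CM + Rux had 0.243, 0.339 and 0.203 CPM (9, 14 and 4 counts). CM samples stood apart from both other groups, whose ranges overlapped. The log2 fold change was 3.14 ± 0.40 for CM against DMEM and -2.64 ± 0.32, or 6.23-fold lower, for ruxolitinib in CM. As the gene passed the filter through its 3 CM samples alone, these differences are descriptions, and no p-value of the filtered fit is given for them. In the edgeR fit without that filter the adjusted p was 1.5e-06 for CM and 7.67e-06 for ruxolitinib. Few counts lie behind these values, 5 and 6 in DMEM and 4 to 14 in CM + Rux. The mean in CM + Rux was 1.33 times that of DMEM, where for Cd274 the same ratio was 17.1. With IKK-16 it measured 0.412, 0.397 and 0.233 CPM, which overlapped with CM + Rux (0.36 ± 0.36, adjusted p = 0.564). The 2 h group had 0.166 and 0.117 CPM and DMEM + Rux 0.0923, 0.0892 and 0.194 CPM. Neither passed against its comparison group (adjusted p = 0.203 and 1), and these counts of 2 to 6 limit what could be detected.

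Both PD-1 ligands lie side by side on chromosome 19 (GRCm38): Cd274 at 29367455 to 29388095 and Pdcd1lg2 at 29410919 to 29471161, both on the plus strand. Jak2, which encodes a target of ruxolitinib, lies just before them, and Plgrkt, a plasminogen receptor gene, starts next to Cd274 on the minus strand. Jak2 had 71.6 and 49.7 CPM in DMEM and 734, 760 and 699 CPM in CM, a rise of 3.59 ± 0.15 on the log2 scale (adjusted p = 1.01e-09). With ruxolitinib it had 659, 740 and 659 CPM, which overlapped with CM (-0.09 ± 0.11, adjusted p = 0.822). IKK-16 then lowered it to 362, 413 and 395 CPM (-0.81 ± 0.11, adjusted p = 0.000496). Jak2 thus passed the test for IKK-16 and not that for ruxolitinib, and Cd274 passed that for ruxolitinib and not that for IKK-16, and the difference between the genes was not tested. Plgrkt rose with CM (0.96 ± 0.17, adjusted p = 0.000286), and its value with ruxolitinib was -0.54 ± 0.15 (adjusted p = 0.0642) with 3 CM + Rux samples below those of CM. An antisense gene overlaps each PD-1 ligand, and counting used the strand.

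**Figure D3:**
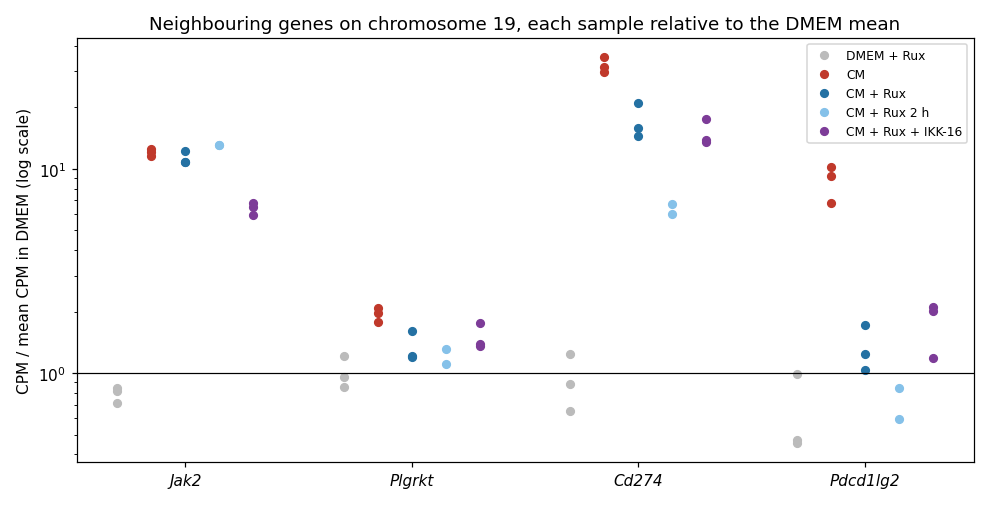
CPM of each sample relative to the DMEM mean, on a log scale, for 4 neighbouring genes of chromosome 19 in the 5 other groups. CM + Rux and CM overlap for Jak2 and are apart for Cd274 and Pdcd1lg2, and CM + Rux + IKK-16 is the lowest CM group for Jak2.

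The promoters of the genes called with ruxolitinib in CM, and of Pdcd1lg2, are shown so that their letters can be read beside these values. Each runs from 250 bases before to 50 after the gene start of RefSeq (GRCm38.p6), which held 7 of 10 members. Matches are in capitals for the interferon-stimulated response element core GAAANNGAA, the κB motif GGNNNTTCC and the STAT dimer motif TTCNNNGAA, on both strands. These motifs occur in 8.56%, 18.5% and 8.3% of 32851 promoters. The Cd274 window, chr19:29367188-29367487 on the plus strand, holds 1 match, to the response element on the reverse strand at -76 to -68. The Lgals9 window, chr11:78984875-78985174 on the minus strand, holds matches to the response element at -54 to -46 and at 17 to 25 and a κB match at -128 to -120. The windows of Pdcd1lg2 (chr19:29410669-29410968, plus) and Icosl (chr10:78069118-78069417, plus) hold none of these letters. A match is a description of letters and not of binding.
Cd274: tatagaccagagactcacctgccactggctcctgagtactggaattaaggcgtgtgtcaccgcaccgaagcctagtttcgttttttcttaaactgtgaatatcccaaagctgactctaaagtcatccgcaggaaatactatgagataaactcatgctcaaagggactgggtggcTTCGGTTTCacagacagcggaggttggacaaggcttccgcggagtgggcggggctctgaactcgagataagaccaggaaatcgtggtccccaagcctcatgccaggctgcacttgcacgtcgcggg
Pdcd1lg2: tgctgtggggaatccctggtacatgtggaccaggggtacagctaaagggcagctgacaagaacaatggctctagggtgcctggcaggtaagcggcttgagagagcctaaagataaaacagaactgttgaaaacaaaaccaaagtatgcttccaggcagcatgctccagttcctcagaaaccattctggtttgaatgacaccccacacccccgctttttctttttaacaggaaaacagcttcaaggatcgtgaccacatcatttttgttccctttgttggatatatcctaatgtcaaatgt
Lgals9: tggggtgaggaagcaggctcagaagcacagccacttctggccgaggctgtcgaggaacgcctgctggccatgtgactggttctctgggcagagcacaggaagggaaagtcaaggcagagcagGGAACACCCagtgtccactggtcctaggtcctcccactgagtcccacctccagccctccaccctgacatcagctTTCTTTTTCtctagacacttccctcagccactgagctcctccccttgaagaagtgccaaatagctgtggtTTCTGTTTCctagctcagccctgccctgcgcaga
Icosl: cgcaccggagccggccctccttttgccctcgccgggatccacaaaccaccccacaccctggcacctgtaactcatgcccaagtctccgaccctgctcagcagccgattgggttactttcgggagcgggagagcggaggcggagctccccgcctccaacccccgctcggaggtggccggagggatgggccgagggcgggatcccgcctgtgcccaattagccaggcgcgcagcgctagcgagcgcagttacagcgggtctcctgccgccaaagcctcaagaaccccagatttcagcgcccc

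Cd80 and Cd86, the ligands of CD28 and CTLA-4, rose together with CM. Cd80 went from 5.08 and 6.34 CPM in DMEM to 67.6, 122 and 75.3 CPM in CM (15.6-fold, log2 fold change 3.96 ± 0.42, adjusted p = 2.64e-06). Cd86 went from 14.2 and 16.8 CPM to 79.3, 116 and 65.2 CPM (5.61-fold, 2.49 ± 0.31, adjusted p = 1.12e-05). For neither gene did the groups overlap. The level of Cd80 per kilobase, divided by that of Cd86 in the same sample, was 0.354 to 0.372 in DMEM and 0.844 to 1.14 in CM.

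With ruxolitinib Cd80 had 40.8, 86.7 and 57.1 CPM. Cd86 had 42.2, 67.9 and 40.6 CPM. Both ranges overlapped with CM, and replicate 2 was the highest in each of these groups. The log2 fold changes were -0.53 ± 0.30 (adjusted p = 0.466) for Cd80 and -0.79 ± 0.25 (adjusted p = 0.102) for Cd86, and neither passed. Same-numbered samples of these groups deviated together, and each gene was lower with ruxolitinib in 3 of 3 pairs. With the replicate number as a block both were called, Cd80 at -0.54 (adjusted p = 0.0215) and Cd86 at -0.79 (adjusted p = 0.00473). Cd86 was also called by DESeq2 (adjusted p = 0.0296) and without CM + Rux replicate 2 (-1.07, adjusted p = 0.0271).

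Addition of IKK-16 left Cd80 at 39.3, 81.0 and 51.9 CPM (-0.10 ± 0.30, adjusted p = 0.863). Cd86 had 61.5, 83.2 and 56.6 CPM there, higher than CM + Rux in 3 of 3 pairs but not past the test (0.41 ± 0.25, adjusted p = 0.297, and 0.0587 with the block). Both inhibitors against CM gave -0.63 ± 0.30 for Cd80 (adjusted p = 0.154), which the block called (-0.64, adjusted p = 0.0029), as did the fit without CM + Rux + IKK-16 replicate 2 (-0.96, adjusted p = 0.0407). Samples of 2 h had 51.9 and 41.6 CPM of Cd80 and 75.3 and 54.1 CPM of Cd86, within or next to the range of CM + Rux (adjusted p = 0.389 and 0.315). In DMEM + Rux the genes stayed at 5.03 to 8.18 and 14.4 to 22.7 CPM, and neither passed against DMEM (adjusted p = 1 for both).

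**Figure D4:**
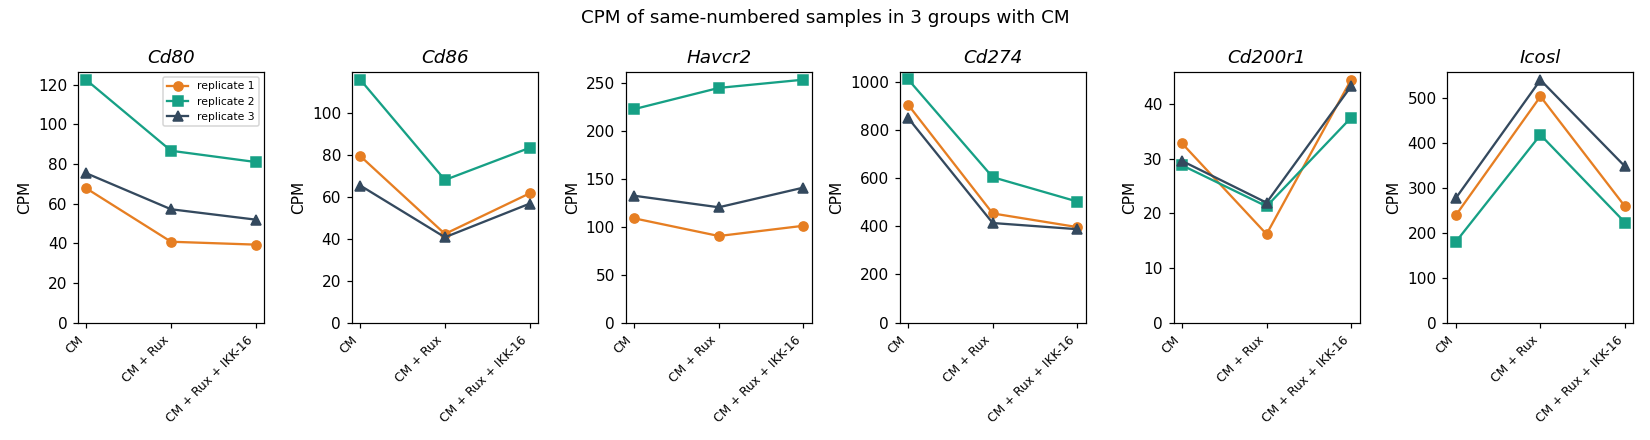
CPM of the same-numbered samples of CM, CM + Rux and CM + Rux + IKK-16, 1 line per replicate number, for 6 members. Replicate 2 is the highest in all 3 groups for Cd80, Cd86, Havcr2 and Cd274, and the 3 lines of Cd86 have their lowest point in CM + Rux.

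Icosl, the gene for ICOS ligand, was the 1 member that rose with ruxolitinib in CM. It measured 145 and 62.3 CPM in DMEM. In CM it measured 239, 180 and 277 CPM. CM + Rux had 503, 418 and 540 CPM. The 3 groups did not overlap, although the DMEM samples lay apart from each other. CM raised the gene by 1.16 ± 0.30 on the log2 scale (adjusted p = 0.00381), a call lost without DMEM replicate 2 (0.68, adjusted p = 0.0513). Ruxolitinib in CM raised it 2.1-fold (1.07 ± 0.26, adjusted p = 0.0294), in 3 of 3 pairs. That call was lost without CM replicate 1 (adjusted p = 0.0812), CM replicate 2 (0.137), CM + Rux replicate 1 (0.0966) or CM + Rux replicate 3 (0.1), with log2 fold changes of 0.92 to 1.09. With the replicate block the adjusted p was 0.000573.

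IKK-16 brought Icosl down to 258, 223 and 347 CPM, below each CM + Rux sample and overlapping with CM. The log2 fold change against CM + Rux was -0.82 ± 0.26 (adjusted p = 0.0465) and that against CM was 0.25 ± 0.26 (adjusted p = 0.517). The first lies close to the threshold and did not pass with TMM scaling (adjusted p = 0.0529) or total counts alone (0.0811). It was also lost without CM + Rux replicate 1, 2 or 3 (adjusted p = 0.103, 0.0544 and 0.122) or CM + Rux + IKK-16 replicate 1 or 2 (0.14 and 0.134), and the block gave 0.00217. The highest levels were in the 2 h group, at 596 and 678 CPM, above the CM + Rux samples but not past the test (0.39 ± 0.28, adjusted p = 0.297). DMEM + Rux had 59.5, 56.1 and 74.0 CPM (-0.72 ± 0.29, adjusted p = 0.771), and without DMEM replicate 2 this became a call (-1.20, adjusted p = 0.0321). The effect of ruxolitinib in CM less that in DMEM was 1.79 ± 0.38 (adjusted p = 0.055), and 2.27 (adjusted p = 0.00488) without DMEM replicate 2. DESeq2 called this difference as well (adjusted p = 0.000629).

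Havcr2 encodes TIM-3, a receptor on T cells and myeloid cells for which galectin-9, the product of Lgals9, is a ligand. Havcr2 rose from 5.85 and 9.81 CPM in DMEM to 109, 223 and 133 CPM in CM (20.1-fold, log2 fold change 4.33 ± 0.56, adjusted p = 1.52e-05). It measured 90.5, 245 and 121 CPM in CM + Rux. With IKK-16 it measured 101, 254 and 141 CPM. These 3 groups overlapped throughout, with replicate 2 highest in each, and the fold changes were -0.03 ± 0.40 for ruxolitinib (adjusted p = 0.99) and 0.12 ± 0.39 for IKK-16 (adjusted p = 0.881). In the samples labelled 2 h it had 92.5 and 66.5 CPM (-0.93 ± 0.46 against CM + Rux, adjusted p = 0.122), and DMEM + Rux 8.07, 9.12 and 13.2 CPM (0.39 ± 0.51, adjusted p = 1).

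Lgals9 fell with ruxolitinib both in CM and in DMEM. It measured 77.7 and 126 CPM in DMEM. In CM it measured 90.3, 135 and 114 CPM, overlapping with DMEM (0.15 ± 0.22, adjusted p = 0.552). CM + Rux had 41.6, 53.0 and 57.9 CPM, below each CM sample (2.23-fold lower, -1.16 ± 0.20, adjusted p = 0.00296). DMEM + Rux had 38.3, 48.6 and 55.1 CPM, below both DMEM samples (2.15-fold lower, -1.10 ± 0.21, adjusted p = 0.0174). The effects of ruxolitinib in both media differed by -0.06 ± 0.29 (adjusted p = 0.997). The call in DMEM was lost with only the groups compared in the fit (adjusted p = 0.127) and without DMEM replicate 2 (-0.71, adjusted p = 0.28), DMEM + Rux replicate 1 (-0.97, 0.0913) or DMEM + Rux replicate 2 (-1.12, 0.0664).

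With IKK-16 Lgals9 stayed low at 48.1, 60.02 and 60.1 CPM (0.14 ± 0.19 against CM + Rux, adjusted p = 0.682). Against CM, both inhibitors together gave -1.02 ± 0.19 (adjusted p = 0.00215). The 2 h group had 92.1 and 87.0 CPM, above each CM + Rux sample (0.82 ± 0.21, adjusted p = 0.00814). That call was lost without 2 h replicate 2 (0.77, adjusted p = 0.0526).

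Vsir, the gene for the checkpoint protein VISTA, stayed within the fold limit of a call in every comparison made. It had 373 and 456 CPM in DMEM and 323, 344 and 287 CPM in CM. The groups did not overlap and the adjusted p was 0.00362, but the log2 fold change of -0.38 ± 0.10 was within the limit of 0.5. It was past that limit without DMEM replicate 1 (-0.52) and with total counts alone (-0.69), a scaling that moved the median of all genes by 0.31. CM + Rux had 331, 325 and 302 CPM (0.01 ± 0.09, adjusted p = 0.99). With IKK-16 the samples lay close together at 243, 248 and 240 CPM, below CM + Rux (-0.39 ± 0.09, adjusted p = 0.00937) and again within the fold limit. Samples of 2 h had 457 and 444 CPM (0.50 ± 0.10 against CM + Rux, adjusted p = 0.0013), a value just inside the limit that passed it without 2 h replicate 3 (0.52) or without CM + Rux replicate 1 or 2 (0.52 and 0.51). DMEM + Rux had 470, 438 and 508 CPM (adjusted p = 1).

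Cd200r1 and Sirpa, introduced above as receptors that restrain the macrophage, both fell with CM, whereas Havcr2, also a receptor on myeloid cells, rose. Cd200r1, the CD200 receptor, went from 65.0 and 109 CPM in DMEM to 32.9, 28.8 and 29.6 CPM in CM (2.87-fold lower, log2 fold change -1.52 ± 0.19, adjusted p = 1.34e-05). Sirpa went from 2978 and 3255 CPM to 1368, 1310 and 1651 CPM (2.16-fold lower, -1.11 ± 0.13, adjusted p = 4.98e-06). The groups were apart for both genes.

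Cd200r1 had its lowest mean in CM + Rux and rose with IKK-16. CM + Rux had 16.2, 21.3 and 22.0 CPM, below each CM sample, with a log2 fold change of -0.62 ± 0.18 that did not pass (adjusted p = 0.073). It was called with the replicate block (-0.63, adjusted p = 0.0222), by DESeq2 (0.0192) and with only the groups compared in the fit (0.0483). IKK-16 raised the gene to 44.5, 37.6 and 43.3 CPM (2.12-fold, 1.08 ± 0.18, adjusted p = 0.00162), above each sample of CM + Rux and of CM. Over its alternatives the adjusted p of this rise ran from 5.66e-08 to 0.0101. Against CM, both inhibitors gave 0.46 ± 0.18 (adjusted p = 0.0771). It had 26.6 and 20.7 CPM in the 2 h group (adjusted p = 0.316 against CM + Rux) and 84.8, 112 and 93.3 CPM in DMEM + Rux (adjusted p = 1 against DMEM). Cd200r4, an activating relative with 184 to 1807 counts per sample, was also lower with CM (-1.56 ± 0.24, adjusted p = 6.59e-05) and higher with IKK-16 (1.03 ± 0.22, adjusted p = 0.00686). Fragments that fit several places were left out of the counts, so stretches shared by such relatives do not enter their values.

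Sirpa measured in CM + Rux 1560, 1572 and 1876 CPM (0.21 ± 0.12, adjusted p = 0.437) and with IKK-16 at 1473, 1456 and 1697 CPM (-0.11 ± 0.12, adjusted p = 0.558). The 2 h group had 2298 and 2077 CPM, above CM + Rux and below DMEM (0.39 ± 0.13 against CM + Rux, adjusted p = 0.0269, within the fold limit). DMEM + Rux had 2740, 3327 and 2918 CPM, overlapping with DMEM. Sirpa differs in sequence between mouse strains, and fragments of Balb/c cells were aligned to a genome of another strain, whose part in its level was not tested. Of 10 partners that carry signals of SIRPα and the CD200 receptor, CM raised 4 (all genes 20.9%), led by the kinase Fgr (1.87 ± 0.32, adjusted p = 0.000178). It lowered 2 (24.1%), led by the adaptor Dok1 (-0.71 ± 0.08, adjusted p = 4.5e-06).

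Other ligands that act on T cells and NK cells moved with CM as well. Of 18 tested from a list of 25, CM raised 11 (all genes 20.9%) and lowered 1 (24.1%), with a median of 1.33 against -0.01 over all genes. Nt5e, the ectoenzyme that makes adenosine, led them (0.226 to 5.14 CPM on average, 4.51 ± 0.54). Nt5e stayed below 1 CPM in DMEM, in DMEM + Rux (at most 0.776) and in the 2 h group (at most 0.441). It thus passed the filter through the other groups with CM, and its difference from DMEM is a description. Cd200 had at most 0.409 CPM in DMEM and 1.39 in DMEM + Rux, against 2.17 or more in CM. It too needed groups with CM to pass the filter, so its rise is a description as well. The counts and median above include both genes and so are not independent of the filter. Cd48, a ligand of CD244, was the gene that fell (-0.97 ± 0.13, adjusted p = 1.48e-05). With ruxolitinib in CM edgeR called 0 of these 18 (all genes 1.2% higher and 2.13% lower). At an unadjusted p under 0.05 in edgeR 4 were higher and 0 lower, against 898 and 994 of all 12372 genes. DESeq2 called 1 higher and 0 lower, against 212 and 334 of all genes. IKK-16 raised 1 (4.07%), Nt5e (1.05 ± 0.31, adjusted p = 0.0369), and lowered 5 (3.66%), led by Cd40 (-1.73 ± 0.25, adjusted p = 0.000732), the receptor through which T cells activate macrophages. Cd40 fell from 188 to 56.7 CPM on average. In the 2 h group Tnfsf9, the ligand of CD137, was higher than in CM + Rux (1.70 ± 0.39, adjusted p = 0.00394).

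Of 15 genes that control PD-L1 or its stability, CM raised 9 (all genes 20.9%), led by Jak2, and lowered 2 (24.1%), led by Ifngr1 (-0.75 ± 0.12, adjusted p = 9.18e-05), a chain of the interferon-γ receptor. Ruxolitinib in CM lowered 2 (2.13%) and raised 0 (1.2%). At an unadjusted p under 0.05 in edgeR 2 were higher and 5 lower, against 898 and 994 of all genes. DESeq2 called 0 higher and 3 lower, against 212 and 334 of all genes. IKK-16 lowered 3 (3.66%), led by Jak2. In the 2 h group Irf1, an interferon-responsive transcription factor, was higher than in CM + Rux (1.42 ± 0.24, adjusted p = 0.000433) and Hif1a, which responds to low oxygen, was lower (-0.94 ± 0.12, adjusted p = 6.17e-05).

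Receptors of T cells and NK cells were mostly at or near 0, and 3 of 10 passed the filter. Pdcd1, the gene for PD-1, had 0 counts in every sample, and Ctla4 had at most 4. Both were singled out after their values were seen. Icos and Cd244a passed at low levels. Icos averaged 1.67 CPM in DMEM and 0.389 in CM. Cd244a averaged 0.417 CPM in DMEM, 2.51 in CM and 0.861 in CM + Rux. It was called lower with ruxolitinib in CM (-1.54 ± 0.25, adjusted p = 0.00239). Cd28, the receptor of CD80 and CD86, was the exception in level, at 80.1 and 182 CPM in DMEM and 119 to 181 CPM in DMEM + Rux. CM samples had 5.17, 7.57 and 8.22 CPM, far below DMEM (-4.21 ± 0.30, adjusted p = 7.62e-08). Cd28 measured 6.51 to 9.12 CPM in CM + Rux, rose to 25.9 to 29.8 CPM with IKK-16 (1.79 ± 0.27, adjusted p = 0.000901) and stood at 41.8 and 55.5 CPM in the 2 h group. The T cell marker genes Cd3g, Cd8a and Trac were at 0 in the same samples, Cd4 averaged 7.96 CPM in DMEM and 5.98 in CM, and Lck was higher in CM. Their part in the Cd28 values was not tested. Among relatives of the members, 5 of 11 listed were tested, and Timd4, which belongs to the TIM family with Havcr2, rose with CM (2.86 ± 0.26, adjusted p = 6.56e-07), rose again when ruxolitinib was present (0.95 ± 0.19, adjusted p = 0.0112), and IKK-16 lowered it (-1.35 ± 0.20, adjusted p = 0.000668).

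The genes with the most similar patterns were found over the 6 group means of log2 CPM, each centred on its own mean, as the smallest root mean square difference. For Icosl the nearest was Tnf, at 0.12 where Icosl itself spanned 3.34, followed by Arl5c (0.18) and Tnfaip2 (0.20). The nearest to Cd274 were Vdr (0.28), Slc16a3 (0.29) and Sdc1 (0.31), against a span of 5.16. Cd80 was nearest to Ahr, Arg2 and Fosl1 (0.15 to 0.20), Cd86 to Arhgap28, Tmbim1 and Vim (0.16 to 0.19), and Havcr2 to Npnt, Sdc1 and Hilpda (0.15 to 0.26). Lgals9 was nearest to Rnf114, Parp9 and Tent4a (0.21 to 0.23). For Cd200r1 they were Fam161a, Ccdc181 and Zfp763 (0.11 to 0.14), and for Pdcd1lg2 Nid2, Gm16096 and Slc4a11 (0.26 to 0.42). Vsir and Sirpa spanned only 0.95 and 1.12, and their nearest genes, Gm7984, Eif3f and Acbd5 for Vsir and Cryz, Cd320 and Efcab2 for Sirpa, lay within 0.06 to 0.10. With 6 points that share the same libraries, these likenesses are descriptions.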

How the data were processed

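RNA of 16 BMDM samples was analysed in 6 groups, by condition and replicate number of the labels. The authors trimmed reads with Trimmomatic 0.33, aligned them to GRCm38 with HISAT2 2.1.0 and counted fragments per gene by strand with featureCounts 1.6.2. Multi-mapping fragments and those over several genes were not counted. The deposited values are whole-number counts without scaling. Symbols were matched for 55141 of 55487 identifiers. The filter required 1 CPM in no fewer than 2 samples, and the genes left were scaled by relative log expression (RLE). One model of all samples was fitted with the quasi-likelihood test of edgeR 4.0.16 in R 4.3.3, limma 3.58.1, and CPM use RLE-scaled totals. Thresholds follow the study's methods, whose section on statistics names another test. Alternatives were TMM, total counts, no filter, a replicate block, only the groups compared, DESeq2 1.42.0 and leaving out each sample. Leaving out replicate 2 throughout, and the block within the groups compared, were added after seeing the data. Same-numbered samples of the 3 groups with CM and replicates 1 to 3 deviated together (correlations of deviations from group means 0.39 to 0.63). Their numbers were taken as pairs only in the pair ratios and in the fits with a replicate block. The main model held group alone, so its p-values and calls are unpaired. Replicates differed by more than counting noise (chi-square divided by its degrees of freedom 13.2 to 50.3). Each list's called genes with the largest rise and fall are named, with Jak2, and all members. Some of these genes are not reported here. Members and lists were chosen with earlier results of these data known. The pipeline was tested on simulated data.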

Additional observations from a re-analysis of the deposited data

How the results depend on the processing

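Counts of members called depended on the setting as follows, with Pdcd1lg2 counted among them. With ruxolitinib in CM, the members called lower numbered 5 without the filter on low counts, 6 with the replicate block, 6 with the block in the groups compared and 5 with DESeq2, against 3. Over all genes the calls lower rose too, from 263 to 416, 440, 511 and 334 in that order. Leaving out 1 sample gave 0 to 1 called higher and 2 to 4 called lower, against 82 to 164 and 161 to 322 of all genes. Pdcd1lg2 was among the members called lower in all 14 alternatives. It passed the filter through CM alone, so wherever that filter is kept its calls are descriptions and do not speak to stability. Without Pdcd1lg2 the main count called lower was 2. For IKK-16 the count called lower was 0 with TMM and 0 with total counts alone, and 0 to 1 when 1 sample was left out. Over all genes it was 432, 350 and 311 to 521 in that order, against 453 in the main fit. Both inhibitors against CM gave 1 called higher with total counts alone, where the calls higher over all genes rose from 817 to 1255. Ruxolitinib in DMEM gave 2 called lower without the filter, 0 with only the groups compared and 0 to 1 when 1 sample was left out. Over all genes these were 180, 89 and 103 to 115, against 120 in the main fit. The 2 h group gave 2 called higher with TMM, 2 with only the groups compared, 0 without replicate 2 of any group and 0 to 2 when 1 sample was left out. Over all genes these were 1604, 1503, 1357 and 1230 to 1580, against 1556 in the main fit. It gave 2 called lower without the filter and 3 with the replicate block, where all genes called lower rose from 1327 to 1454 and 1510. The effect of ruxolitinib in CM less that in DMEM gave 1 called higher without the filter, 1 with the replicate block, 1 with DESeq2 and 1 without replicate 2 of any group. All genes called higher went from 29 to 213, 247, 149 and 79 in that order. It gave 3 and 1 called lower without the filter and with the block, where all genes called lower went from 22 to 136 and 197. Leaving out 1 sample gave 0 to 1 in each direction, against 9 to 84 of all genes higher and 5 to 34 lower. The cause of these shifts was not tested. In the comparisons with 2 shared replicate numbers, whose correlations were 0.20 to 0.35, the block called Cd80 (-0.55) and Havcr2 (-1.09) lower in the 2 h group.

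Directions turned only for values that were not called. Lgals9 in CM against DMEM was -0.16 with total counts alone and -0.16 to 0.55 when 1 sample was left out. Leaving out 1 sample gave for ruxolitinib in CM -0.56 to 0.33 (Havcr2) and -0.063 to 0.066 (Vsir), for IKK-16 -0.43 to 0.23 (Cd80) and -0.33 to 0.65 (Havcr2), and for both inhibitors -0.36 to 0.45 (Havcr2). For ruxolitinib in DMEM it gave -0.36 to 0.11 (Cd274), -1.20 to 0.019 (Icosl), -0.18 to 0.57 (Cd200r1) and -0.14 to 0.009 (Sirpa), and -0.45 to 0.25 for the difference between media in Lgals9. Without replicate 2 of any group ruxolitinib in DMEM gave 0.14 for Cd274 and 0.024 for Pdcd1lg2. Depth limits Pdcd1lg2, for which 3 counts correspond to up to 0.175 CPM.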
